A study of Mus musculus with 8 samples.

Results

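The troponin genes are described here in the outflow tract (OFT), the vessel-like exit of the embryonic heart. The 6 genes are *Tnni1*, *Tnni2* and *Tnni3* for troponin I, *Tnnt1* and *Tnnt2* for troponin T, and *Tnnc1* for troponin C, out of 14608 genes in the deposited table. They were taken by name and chosen by their differences in level between control and mutant libraries, which were already known, so these values are given as a description, without a test. Poly-A RNA was sequenced from mouse OFT at embryonic day 11.5, with 4 control libraries and 4 libraries of compound heterozygous *Mib1V943F/+ Gata6STOP/+* embryos (mutant). The titles of the control libraries label them WT (wild type). *Mib1V943F* is a missense allele of the ubiquitin ligase gene *Mib1*, and *Gata6STOP* is a null allele of the transcription factor gene *Gata6*. The series has no library of either allele alone, so the share of each allele in a difference cannot be told apart. Each library was a pool of embryos, 3 according to the series' design text, and the study's methods describe the pooling differently. No source used here ties a library to a litter, so p-values measure only the spread between these libraries, which may be technical.

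Troponin is the calcium switch of striated muscle and sits on actin and tropomyosin along the thin filament. Troponin C binds calcium, troponin I holds back the interaction of actin with myosin, and troponin T fastens the complex to tropomyosin. The embryonic heart makes slow skeletal troponin I (*Tnni1*) before cardiac troponin I (*Tnni3*) takes over around birth, and *Tnnt2* and *Tnnc1* encode the troponin T and troponin C of the heart. *Tnnt1* encodes slow skeletal troponin T and *Tnni2* fast skeletal troponin I.

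The libraries held 10669420 to 30469165 reads on the listed genes, with control replicate 2 the shallowest and the other 7 at 21064242 or more. *Gata6* RNA did not separate the groups, at 262 ± 18.5 CPM (read counts scaled to library size, the unit of the deposited table) in controls and 249 ± 36.1 CPM in mutants (SD, n = 4), so every direction below rests on the labels. In a limma fit of log2(CPM + 0.5) over all genes, 0 of 14608 passed a Benjamini-Hochberg adjusted p of 0.05, and the smallest adjusted p was 0.124. At an unadjusted p under 0.05 the same fit gave 967 genes lower in mutants and 796 higher. With each library rescaled to one common sum these counts were 740 and 1161.

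The genes lie in pairs, with a troponin I gene 5′ of a troponin T gene on the same strand (GRCm38, GENCODE M21). *Tnni1* (chr1:135779434-135810989) and *Tnnt2* (chr1:135836354-135852260) are 25364 bp apart on the plus strand, with *Lad1* between them. *Tnni3* (chr7:4518305-4524229) and *Tnnt1* (chr7:4504570-4516382) are 1922 bp apart on the minus strand. *Tnni2* (chr7:142441808-142444410) lies 54425 bp from *Tnnt3*, which encodes fast skeletal troponin T, with *Lsp1* between them. *Tnnc1* (chr14:31208312-31211729) stands alone and overlaps *Nisch* on the opposite strand. *Tnni3* overlaps *Dnaaf3* on the same strand, and *Dnaaf3* was at only 1.66 CPM in controls.

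Sequences upstream of 4 start sites are shown: those of the members whose RefSeq promoter begins at its far end with bases outside annotated exons, of which *Tnnt2*, *Tnnc1* and *Tnni1* were lower in every mutant library and *Tnnt1* was not. They are on GRCm38.p6, written 5′ to 3′ on the gene's strand and limited to those bases: *Tnnt2* at chr1:135836084-135836333, *Tnnc1* at chr14:31208062-31208311 and *Tnni1* at chr1:135799171-135799401, all on the plus strand, and *Tnnt1* at chr7:4516005-4516225 on the minus strand. For *Tnni1* the first of 2 starts is shown. Capitals mark matches to the GATA, M-CAT or TATAAA motif, and *Tnni1* has none.
Tnnt2: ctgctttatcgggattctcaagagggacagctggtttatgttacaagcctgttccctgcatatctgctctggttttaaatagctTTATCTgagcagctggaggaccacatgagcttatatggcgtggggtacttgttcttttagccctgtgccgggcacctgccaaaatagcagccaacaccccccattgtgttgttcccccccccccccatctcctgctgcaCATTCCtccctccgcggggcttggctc
Tnnc1: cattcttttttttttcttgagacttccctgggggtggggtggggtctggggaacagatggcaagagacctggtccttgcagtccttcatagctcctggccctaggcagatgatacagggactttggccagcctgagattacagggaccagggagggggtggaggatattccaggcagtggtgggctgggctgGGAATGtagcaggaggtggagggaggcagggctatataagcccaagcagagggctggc
Tnni1: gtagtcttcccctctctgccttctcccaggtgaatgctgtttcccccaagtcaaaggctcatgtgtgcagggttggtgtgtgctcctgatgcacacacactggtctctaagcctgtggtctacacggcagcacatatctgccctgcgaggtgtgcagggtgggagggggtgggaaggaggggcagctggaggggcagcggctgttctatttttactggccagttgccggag
Tnnt1: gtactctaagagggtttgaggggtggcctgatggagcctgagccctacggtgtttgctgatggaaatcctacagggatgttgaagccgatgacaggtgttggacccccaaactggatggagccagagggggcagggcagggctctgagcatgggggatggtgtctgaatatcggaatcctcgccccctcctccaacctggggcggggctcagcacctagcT

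Both strands of the 250 bases before each start were searched for 7 motifs. The GATA motif (GATA with A or T before it and A or G after it) matched once, 166 bases upstream of *Tnnt2*, and 26.5% of 32851 promoters held a match. The M-CAT motif (CATTCC) matched 27 bases upstream of *Tnnt2* and 58 bases upstream of *Tnnc1*, with a match in 12.6% of promoters. The NKX2-5 element (TNAAGTG), the CArG box and the MEF2 site matched in none of the windows searched, against 10.1%, 1.47% and 2.92% of promoters. The E-box (CANNTG) matched in the window of at least 1 start of each of the 5 genes with an entry, and in 66.2% of all promoters, so it is not capitalised. TATAAA matched once, starting 30 bases upstream of *Tnnt1*, with a match in 12.4% of promoters. Its first base is the last base of the printed stretch, and the rest lies in an annotated exon. A second *Tnnt2* start had an E-box match only, and *Tnni2* had no entry. The windows of *Tnni1*, *Tnni3* and *Tnnt1* lie inside the genes as GENCODE annotates them, and that of *Tnni3* begins in an annotated exon. The bases before the 5′ ends of those genes were not searched, so a missing match there is not shown.

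Troponin I was measured from 3 genes, and all 3 were lower in every mutant library than in any control library. So were 3.9% of all 14608 genes, and the members were chosen with this contrast known. *Tnni1*, the slow skeletal isoform of the embryonic heart, was at 991, 1062, 1156 and 892 CPM in controls and at 806, 836, 794 and 801 CPM in mutants. The mutant libraries lay close together, with a coefficient of variation of 2.29% against 10.9% in controls. The mutant mean was 0.790 times the control mean, a log2 fold change of -0.33 on the log2(CPM + 0.5) scale (SE 0.08, 95% interval -0.51 to -0.16).

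*Tnni3*, the adult cardiac isoform, was at 238, 264, 278 and 237 CPM in controls and at 180.4, 224, 226 and 196 CPM in mutants. The groups did not overlap, although the gap between the highest mutant and the lowest control was 11.6 CPM, smaller than either SD. Its log2 fold change was -0.30 (SE 0.09, 95% interval -0.49 to -0.11).

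*Tnni2*, the fast skeletal isoform, was the least abundant member and had the lowest ratio of mutant to control. Its levels were 16.9, 17.9, 19.6 and 16.6 CPM in controls and 11.6, 9.97, 9.72 and 11.99 CPM in mutants. Every mutant library was below every control library, and the gap of 4.62 CPM exceeded both SDs (1.36 and 1.14). The mutant mean was 0.608 times the control mean, with a log2 fold change of -0.69 (SE 0.10, 95% interval -0.92 to -0.47). These values rest on 189 to 487 reads a library, so counting error alone gives a coefficient of variation of 7.27% at the fewest reads.

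The 2 troponin T genes differed from each other. *Tnnt2*, the cardiac isoform, was at 1835, 1852, 2031 and 1731 CPM in controls and at 1496, 1345, 1420.2 and 1565 CPM in mutants. All mutant libraries were lower than all controls, with a log2 fold change of -0.35 (SE 0.08, 95% interval -0.53 to -0.18).

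*Tnnt1*, the slow skeletal isoform, was at 71.4, 75.4, 70.8 and 72.7 CPM in controls and at 71.5, 60.2, 75.4 and 74.3 CPM in mutants. Of the mutant libraries only replicate 2 was below the control range, and the groups overlapped. The log2 fold change was -0.05 (SE 0.08), and its 95% interval ran from -0.22 to 0.12. Without mutant replicate 2 it was 0.02.

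*Tnnc1*, the calcium-binding subunit shared by cardiac and slow skeletal muscle, was at 637, 681, 677 and 621 CPM in controls and at 532, 541, 536 and 552 CPM in mutants. The groups did not overlap, and the mutant libraries differed from one another by a coefficient of variation of 1.61%. The log2 fold change was -0.27 (SE 0.06, 95% interval -0.41 to -0.14). *Nisch*, on the opposite strand, overlapped between groups at 873 ± 59.0 and 796 ± 21.8 CPM. The library kit keeps strand, but the strand setting of the counting is not given in the sources used here.

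In all, 5 of the 6 genes were lower in every mutant library, as were 3.9% of all 14608 genes, and 3.2% of all genes were higher in every mutant library. The members were chosen with this contrast known, so nothing is read from that count. In bulk tissue, fewer cardiomyocytes and less RNA per cardiomyocyte cannot be told apart.

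**Figure D1:**
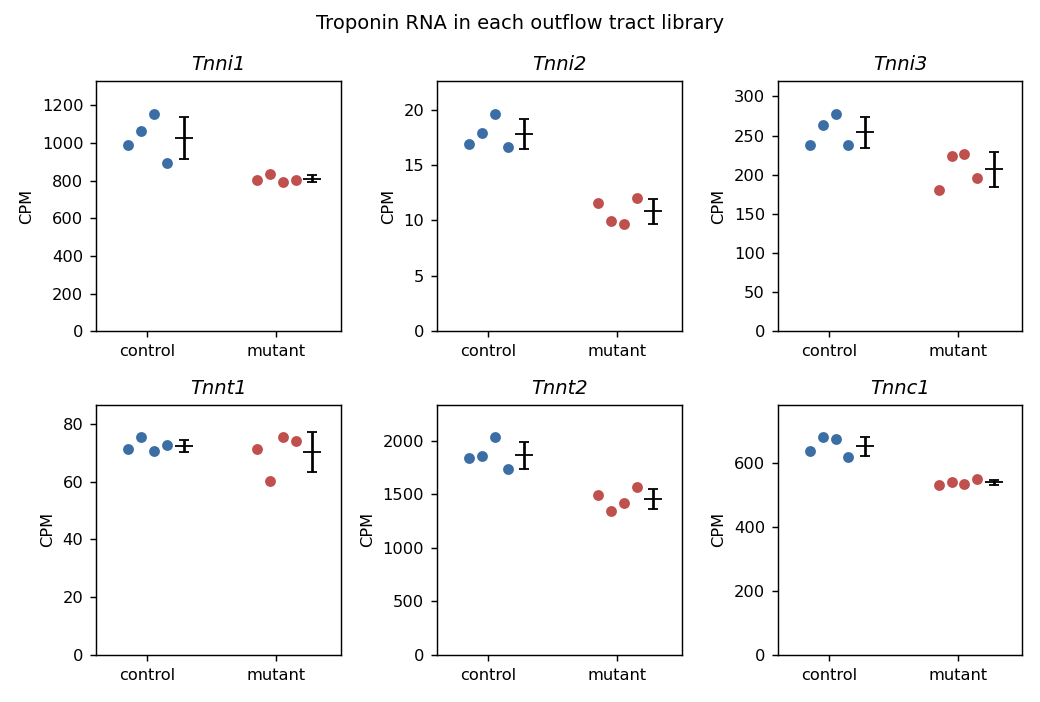
Level of each troponin gene in CPM (vertical axes, each from 0) in the 4 control (blue) and 4 mutant (red) OFT libraries, with the mean and SD beside the points. Mutant points lie below control points in 5 panels, and in the *Tnnt1* panel they overlap.

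Of the remaining troponin genes, *Tnnt3* was at 2.72 ± 0.312 CPM in controls and 1.97 ± 0.450 CPM in mutants, from 33 to 73 reads a library. The groups overlapped, and limma's adjusted p was 0.406. *Tnnc2*, fast skeletal troponin C, is not listed in the table analysed here. The genes between the pairs, named after their values were seen, did not share the direction of the troponins: *Lad1* was at 3.43 CPM in controls and 4.84 CPM in mutants (adjusted p 0.365), and *Lsp1* at 51.6 and 55.7 CPM (adjusted p 0.574).

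Levels were compared between genes as CPM per kb of the longest protein-coding transcript. In controls the order was *Tnnt2* (1552), *Tnnc1* (907), *Tnni1* (891), *Tnni3* (279), *Tnnt1* (68.5) and *Tnni2* (23.1 CPM per kb). The mutant libraries had the same order at 1214, 750, 704, 227, 66.4 and 14.1 CPM per kb. *Tnnc1* and *Tnni1* were the only neighbours whose control ranges overlapped, and *Tnnc1* was the higher of them in 7 of 8 libraries. That order depends on the transcript length used: with the mean length of the coding transcripts, *Tnni1* came to 1212 CPM per kb in controls, above *Tnnc1* at 907. By the longest transcript, *Tnnt2* ranked 14th, and *Tnni2* 3856th, among 13209 genes with a length.

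Cardiac *Tnnt2* made up nearly all troponin T RNA, and slow skeletal *Tnni1* most of troponin I RNA. Per length, *Tnni1* held 74.7 ± 0.922% of troponin I in controls and 74.5 ± 1.76% in mutants. *Tnni3* held 23.4 ± 0.863% and 24.0 ± 1.93%. Both shares overlapped between groups, so the balance of slow to cardiac troponin I did not separate mutant from control libraries.

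Among the less abundant isoforms, the shares of *Tnni2* and *Tnnt1* separated the groups, in opposite directions, and that of *Tnnt3* did not. *Tnni2* held 1.93, 1.89, 1.92 and 2.05% of troponin I in controls and 1.65, 1.32, 1.33 and 1.68% in mutants, lower in every mutant library. *Tnnt1* held 4.21, 4.40, 3.79 and 4.53% of troponin T in controls and 5.13, 4.82, 5.67 and 5.10% in mutants, higher in every mutant library. *Tnnt2* held 95.6 ± 0.345% and 94.7 ± 0.361%, *Tnnt3* held 0.156 ± 0.0233% and 0.142 ± 0.0254% with overlapping groups, and the CPM level of *Tnnt1* itself overlapped.

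The proportions of the subunits to each other overlapped between groups. Summed troponin I over troponin C was 1.31 ± 0.0803 in controls and 1.26 ± 0.0453 in mutants, per length. Summed troponin T over troponin C was 1.79 ± 0.0702 and 1.71 ± 0.105. The troponin T ratio and 5 ratios between single genes were added after the values were seen, 6 in all. Of these, the ratio of *Tnni2* to *Tnni1* per length was lower in every mutant library. It was 0.0253 to 0.0279 in controls and 0.0179 to 0.0224 in mutants. The other added ratios overlapped between groups.

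**Figure D2:**
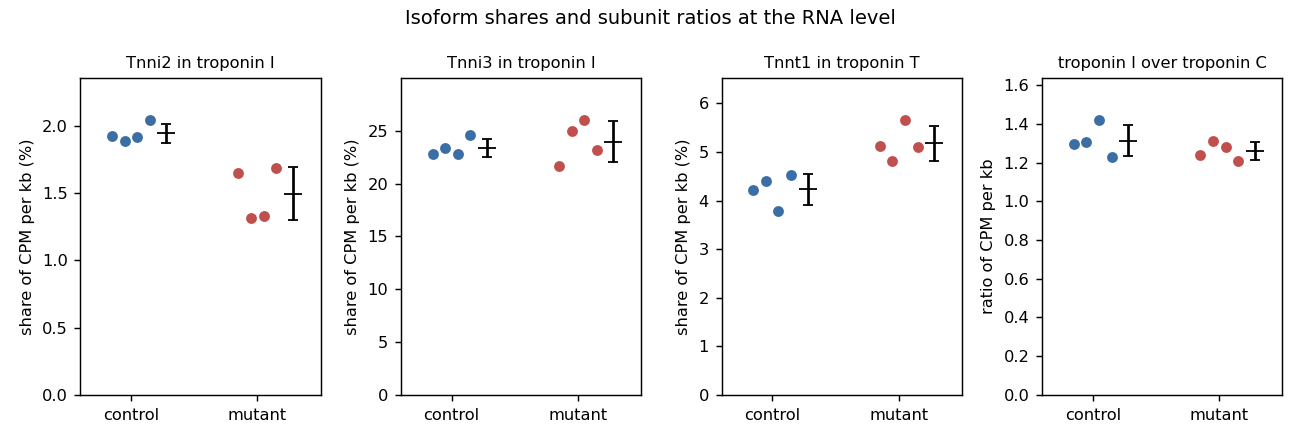
Share of *Tnni2* and *Tnni3* in troponin I, of *Tnnt1* in troponin T (percent of CPM per kb), and the ratio of summed troponin I to troponin C, in each control (blue) and mutant (red) library with mean and SD. The *Tnni2* share is lower and the *Tnnt1* share higher in all mutant libraries, and the other panels overlap.

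Other contractile genes were read from the same fit, and in each list 0 passed the adjusted threshold. The thin filament, thick filament and calcium handling lists were chosen with earlier results of these data known. Nothing is therefore read from their counts. Of 14 thin filament genes, which include *Tnnt3*, 12 are listed, with a median log2 fold change of -0.24, against -0.32 for the 6 troponins and 0.00 for all genes. At an unadjusted p under 0.05, 5 of the 12 were lower and 0 higher, beside 6.62% and 5.45% of all genes. *Tnni3k*, a cardiac kinase that binds cardiac troponin I, had a log2 fold change of -0.37 (adjusted p 0.202), and *Actc1*, cardiac actin, one of -0.33 (adjusted p 0.287). These were the thin filament genes lower in every mutant library, beside 3.9% of all genes.

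The tropomyosins, to which troponin T binds, overlapped between groups. *Tpm1* had a log2 fold change of -0.11 (95% interval -0.27 to 0.04), *Tpm2* of 0.03 (-0.09 to 0.16) and *Tpm3* of 0.07 (-0.08 to 0.23). The thin filament length regulators also overlapped, at -0.23 for *Tmod1*, -0.09 for *Lmod2* and -0.35 for *Lmod3*. So did *Acta1*, skeletal actin, at -0.19, *Nebl* at -0.25 and *Neb* at -0.46, the last from under 2 CPM.

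Of 14 thick filament genes 13 are listed, 11 of them lower and 0 higher at an unadjusted p under 0.05, with a median of -0.32. The lowest p-values belonged to *Myh7b*, a slow myosin heavy chain (log2 fold change -0.46, adjusted p 0.124), and to the ventricular myosin light chains *Myl2* (-0.56, adjusted p 0.142) and *Myl3* (-0.38, adjusted p 0.174). Of the 12 calcium handling genes, 8 were lower and 0 higher at an unadjusted p under 0.05, with a median of -0.29. Both counts stand beside the same 6.62% and 5.45% of all genes. Among these were *Cacna1c*, the L-type calcium channel (-0.34, adjusted p 0.234), *Jph2*, which joins the sarcoplasmic reticulum to the cell membrane (-0.37, adjusted p 0.259), and *Hrc*, a calcium-binding protein of that store (-0.55, adjusted p 0.270). The troponin median was thus close to those of the thick filament and calcium handling lists.

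**Figure D3:**
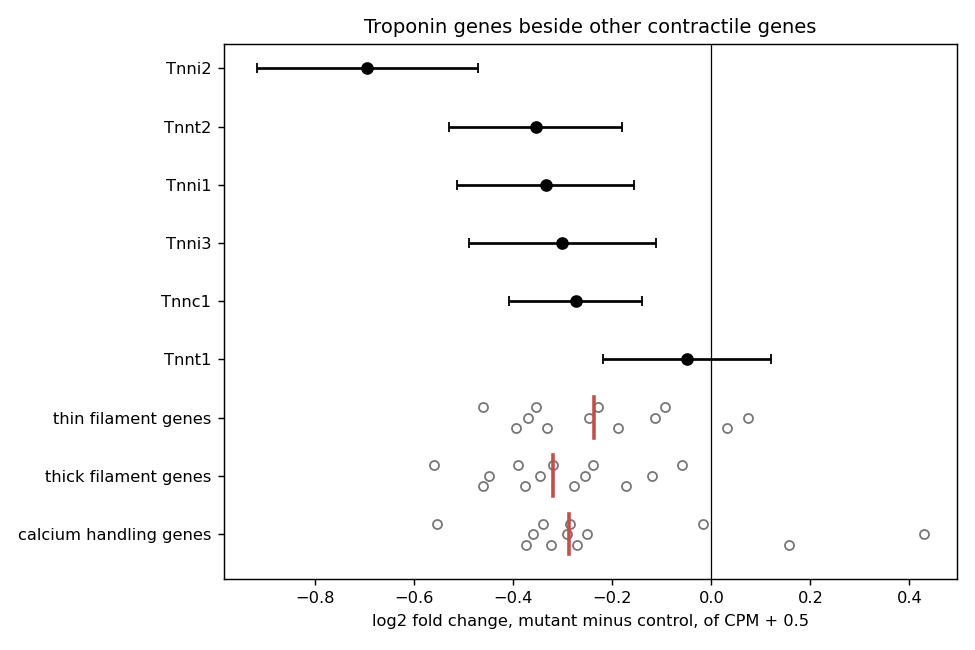
Log2 fold change, mutant minus control, of CPM + 0.5: the 6 troponin genes with 95% intervals (black), and each listed gene of 3 other lists (open circles) with the list's median (red line). *Tnni2* is the lowest troponin gene at -0.69, *Tnnt1* is near 0, and the other 4 lie between -0.35 and -0.27.

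Markers of the cell types in the tissue were summed for each library. The 18 cardiomyocyte markers, which hold no troponin gene, summed to 17175 to 19512 CPM in controls and 13494 to 16298 CPM in mutants, lower in every mutant library. *Myh7* alone gave 10362 of a mean sum of 18714 CPM in controls and 7915 of 14778 CPM in mutants. With *Myh6*, *Myl4* and *Myl7* it is also in the thick filament list, so the lists are not separate. Of 17 skeletal muscle markers 3 are listed (*Actn3*, *Mylpf* and *Tnnt3*), at 11.4 to 14.8 CPM in controls and 7.80 to 13.3 CPM in mutants, and the myogenic factors *Myod1*, *Myog* and *Myf5* are not listed. The 5 listed of 8 second heart field markers, genes of the progenitors that build the OFT, summed to 34.9 to 41.8 CPM in controls and 52.2 to 90.5 CPM in mutants. The sum was higher in every mutant library, as was 1 of the 5 markers, *Isl1*, at 29.2 ± 3.44 CPM in controls and 46.2 ± 8.79 CPM in mutants (limma adjusted p 0.142). *Six2* varied most among the mutant libraries relative to its mean, at 6.39 ± 7.54 CPM. Sums for smooth muscle, endothelium, cushion mesenchyme, neural crest derivatives, epithelium, erythroid cells and macrophages overlapped between groups. Single markers in these lists did separate the groups. *Myh11* and *Actg2* of smooth muscle and *Elavl4* of neural crest derivatives were higher in every mutant library, as were 3.2% of all genes. *Cd68* of macrophages was lower in every mutant library, as were 3.9% of all genes. The limma adjusted p was 0.270, 0.270, 0.270 and 0.351 in that order. The part of these cell types in the troponin levels was not tested.

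To set the troponins beside other genes of the same cells, the median log2 deviation of the 18 cardiomyocyte markers was taken off each library. The markers themselves were lower by a median deviation of -0.34 in mutants. On this scale the mutant minus control difference was 0.01 for *Tnni1*, 0.04 for *Tnni3*, -0.01 for *Tnnt2* and 0.07 for *Tnnc1*, all with overlapping groups. These 4 genes thus differed between groups by about as much as the markers.

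*Tnni2* and *Tnnt1* stood off from the markers. *Tnni2* was at 0.07, 0.12, 0.27 and 0.19 in controls and -0.10, -0.20, -0.31 and -0.16 in mutants, a difference of -0.35 with every mutant library lower. *Tnnt1* was higher in every mutant library, with a difference of 0.29. Taking off the markers shifts every gene upward in mutants, so that 0.0685% of all genes were lower and 48.8% higher in every mutant library on this scale, and nothing is read from these shares. Of the 18 markers, *Nppa* (-1.75) and *Mb* (-0.38) lay below *Tnni2*, and *Ankrd1* (0.41) above *Tnnt1*.

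This scale was added after the data were seen, and it was first computed with the mean of the markers. The median replaced the mean once the mean was seen to follow *Nppa*, whose log2 fold change was -2.09. *Nppa* overlapped between groups, at 111 ± 38.5 CPM in controls and 46.2 ± 49.0 CPM in mutants. With the mean the differences were 0.10 for *Tnni1*, -0.26 for *Tnni2*, 0.14 for *Tnni3*, 0.39 for *Tnnt1*, 0.08 for *Tnnt2* and 0.16 for *Tnnc1*. *Tnni2* was again lower and *Tnnt1* higher in every mutant library, and the same shift left 0.0205% of all genes lower and 55.2% higher.

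**Figure D4:**
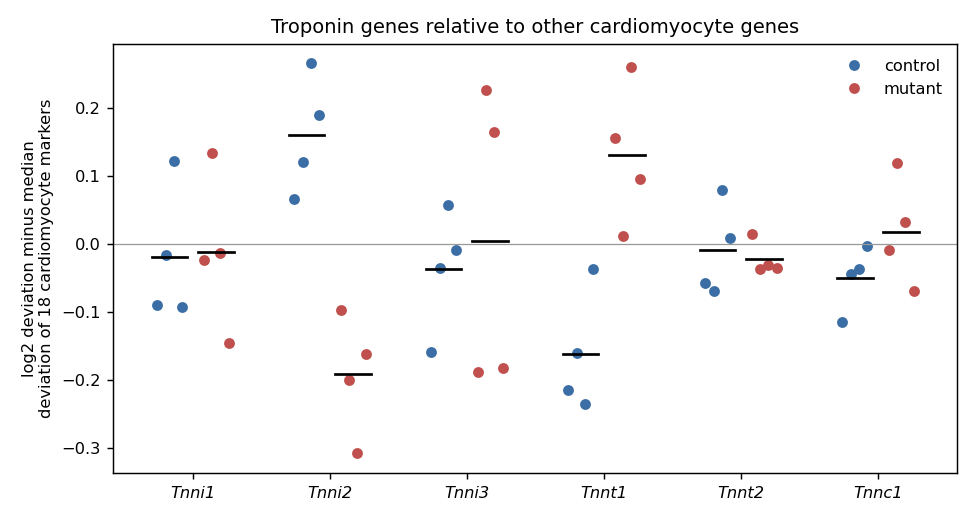
Log2 deviation of each troponin gene from its mean over the 8 libraries, minus the median deviation of 18 cardiomyocyte markers, for control (blue) and mutant (red) libraries, with group means as lines. The groups separate for *Tnni2* (mutants lower) and *Tnnt1* (mutants higher) and overlap for the other 4 genes.

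Within the groups, the troponins did not all vary together. After each group's mean was taken off, Pearson's r over the 8 libraries was 0.91 for *Tnni2* with *Tnnt2* and 0.85 for *Tnni1* with *Tnnc1*, the highest of 15 pairs. The lowest was -0.27, for *Tnni3* with *Tnnt1*, which are neighbours in the genome. All genes of a library share its pool and its depth, and with 8 libraries these values are a description only.

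By the same measure, among 10271 genes averaging 10 CPM or more, the 3 genes most like each troponin were named. For *Tnni1* these were *Etfb* (r = 0.98), *Mettl22* and *Timm10*, for *Tnni2* *Chchd6* (0.95), *5430431A17Rik* and *Rabggta*, and for *Tnni3* *Plxnb2* (0.98), *Sdf4* and *Itga3*. For *Tnnt1* they were *Tulp3* (0.99), *Rab35* and *Tpcn1*, for *Tnnt2* *Lonp1* (0.99), *Apobec2* and *Amz2*, and for *Tnnc1* *Cops7a* (0.98), *Nosip* and *Cog1*. Of these 18 genes, 5 were also named when the group means were kept. They were picked as the highest of 10271 correlations over 8 libraries, so a high r is built into the choice. Joint regulation was not tested.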

How the data were processed

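RNA from E11.5 OFT was sequenced as single-end reads. The authors trimmed reads with cutadapt 1.18, quantified genes with RSEM 1.2.3 on GRCm38, kept genes with at least 1 CPM in 3 or more libraries, and deposited CPM scaled by the TMM method of edgeR 3.32.1. Every deposited CPM value was a whole multiple of that of 1 read within 0.001, which gave the depth. Count tests, listed as alternatives, were not run on reads recovered from normalized values. Control and mutant libraries (4 each, grouped by the genotype label) were compared with limma 3.58.1 in R 4.3.3 (lmFit and eBayes with trend) on log2(CPM + 0.5), two-sided, with Benjamini-Hochberg adjustment over 14608 genes. The fit was tested on simulated data whose changes were larger than those of the troponin genes. How well it finds smaller changes was not tested. Lengths and positions came from GENCODE M21 and promoters from RefSeq. Named genes were the members, all thin filament genes, the 3 lowest p-values in the thick filament and calcium handling lists, and the 3 genes most like each member. Members and lists were chosen with earlier results of these data known. Alternatives covered the pseudocount, a filter on low values, scaling, the replicate block, transcript length and leaving out each library.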

Additional observations from a re-analysis of the deposited data

Results flagged for a closer look

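In 38 groups of 4 libraries (the troponin levels, shares and ratios, each in controls and in mutants) 1 value stood far from the rest of its group. The ratio of *Tnni2* to *Tnni1* per length was 0.0279 in control replicate 4, against 0.0256, 0.0253 and 0.0255 in the other controls. This ratio was one of those added after the values were seen. Chance flags about 1 in 20 such groups.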

How the results depend on the processing

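The limma fit had 14 alternatives listed in the processing (pseudocount, filter, scaling, block and left-out libraries). Under these the log2 fold changes ran from -0.40 to -0.27 for *Tnni1*, -0.74 to -0.63 for *Tnni2* and -0.35 to -0.24 for *Tnni3*. They ran from -0.39 to -0.31 for *Tnnt2*, -0.30 to -0.25 for *Tnnc1* and -0.08 to 0.02 for *Tnnt1*. For all but *Tnnt1*, every mutant library was below every control library. The sign of those genes therefore could not change with the pseudocount or a left-out library. The filter and the block leave a fold change as it is, so nothing is read from the kept sign. Of 223 values under an alternative, 203 moved by less than the spread between libraries or, for counts, by under 1.5 times. Leaving out 1 of 4 libraries cannot move a group mean by as much as that spread. The 203 are therefore no measure of how robust the values are. Relative to the median of the cardiomyocyte markers the fold changes were 0.0074 (*Tnni1*), -0.35 (*Tnni2*), 0.041 (*Tnni3*), 0.29 (*Tnnt1*), -0.012 (*Tnnt2*) and 0.068 (*Tnnc1*), and relative to their mean 0.10, -0.26, 0.14, 0.39, 0.083 and 0.16. Both were chosen after seeing the data. With the mean transcript length, *Tnni2* held 1.72% of troponin I in controls, *Tnnt1* held 5.13% and 6.26% of troponin T in controls and mutants, *Tnnt2* held 94.7% and 93.6%, and troponin I over troponin C was 1.79 and 1.72. With the group means kept, 5 of 18 most like genes were shared. The limma fit called 0 genes at the adjusted threshold under every alternative run. Same-numbered control and mutant libraries did not deviate together (r = 0.03, -0.19, 0.03 and -0.05), and 0 of 4 control libraries correlated best with its own number. With the replicate number as a block the count stayed at 0, with 745 genes lower and 559 higher at an unadjusted p under 0.05. Rescaling each library to one common sum put 38.9% of genes under that p on the lower side, against 54.8% in the reported fit. The edgeR and DESeq2 tests were not run. Among the troponin genes, *Tnnt3* and *Tnni2* had the fewest reads.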
